A study of Mus musculus with 11 samples.

Results

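Cholesterol and fatty acid synthesis was followed through 32 genes: 18 enzymes of the sterol branch, 4 genes of regulation and sterol transport, and 10 enzymes of the fatty acid branch. They were picked by name for their place in the pathway, out of 32868 gene symbols with values. All 32 passed the filter on low counts and were among the 9932 genes tested. The data are bulk RNA-seq of primary fibroblasts from neonatal mouse lung, separated by flow cytometry. Mice lacking peptidylarginine deiminase 2 (PAD2KO) were set against wild-type mice (WT) to ask how basal expression depends on this enzyme, which converts arginine in proteins to citrulline. Batch 1 holds PAD2KO libraries 1, 2 and 3 and WT libraries 1, 3 and 4. Batch 2 holds PAD2KO libraries 6 and 7 and WT libraries 5, 6 and 7. The study also concerns a TNFa response, but no label used here names a treatment. Nor do the labels give a strain, a sex, the knockout allele, the sort gate or how many animals went into a library. What a batch stands for is likewise given only by its number.

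Cells build cholesterol from acetyl-CoA through mevalonate, isoprenoids and squalene, and build fatty acids from the same acetyl-CoA through malonyl-CoA. Both branches are switched on by sterol regulatory element-binding proteins, transcription factors that stay in the endoplasmic reticulum while sterols are plentiful and are cut and released when sterols run low. SREBP-2, made by Srebf2, acts mainly on sterol genes, and a form of SREBP-1, made by Srebf1, acts mainly on fatty acid genes. Which form of SREBP-1 these cells made was not measured. In the lung, lipid-laden fibroblasts lie beside the alveolar epithelium and pass lipid to the cells that make surfactant.

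Libraries held 962633 to 1421243 counts of named genes, and a count of 0 in a library allows up to 2.11 to 3.12 CPM (counts scaled to a common library size), a limit of counting error only. The gene meant to be lost, Padi2, had 9 counts in all PAD2KO libraries together and 3 in all WT libraries, too few to check the genotype. All 10 fibroblast markers were detected, and their sum was lower in batch 2 than in batch 1 in both genotypes. It was 10300 to 11000 CPM in PAD2KO and 11700 to 12500 CPM in WT libraries of batch 2, and 16600 to 17800 CPM in PAD2KO and 17100 to 22600 CPM in WT libraries of batch 1. Col3a1 and Fn1 had the largest medians of these markers, at 5160 and 4950 CPM, and Col3a1 ranged from 967 to 7440 CPM over all libraries. Pdgfra ranged from 532 to 715 CPM. Single fibroblast markers were not compared between groups. The epithelial genes Sftpc, Sftpa1, Nkx2-1 and Scgb1a1 and the adipocyte genes Adipoq, Cidec, Lep and Cidea were at 0 counts in all 11 libraries. The other epithelial markers were detected: Krt18 at 10.4 to 38.1 CPM, and the rest with 1 (Epcam) to 23 (Krt8) counts over all libraries. The other adipocyte markers, Plin1 and Retn, had 10 and 3 counts over all libraries. A pair of libraries stood apart for the lipid genes: PAD2KO 7 was the lowest of the 11 for 19 of the 32 genes and WT 7 was the highest for 11. Counts of signs over the 32 genes within a single comparison that rest on PAD2KO 7 are therefore given with and without it. Other counts, and values of single genes and of neighbouring pathways, are mostly given with all libraries only.

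Per transcript length, the deposited abundances (TPM, medians of the 11 libraries) ran from 214 TPM for Fdps, which makes farnesyl diphosphate, through 174 and 170 TPM for the polyunsaturated fatty acid desaturases Fads2 and Fads1, to 10.7 TPM for Acss2, which turns acetate into acetyl-CoA, and 8.2 TPM for Acaca, the acetyl-CoA carboxylase. Fdps ranged from 137 to 294 TPM and Acaca from 5.99 to 13.8 TPM over libraries. The lowest sterol enzyme was Dhcr7, at 18.2 TPM. All further levels are normalised CPM, which compare a gene between libraries and not genes with each other.

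**Figure D1:**
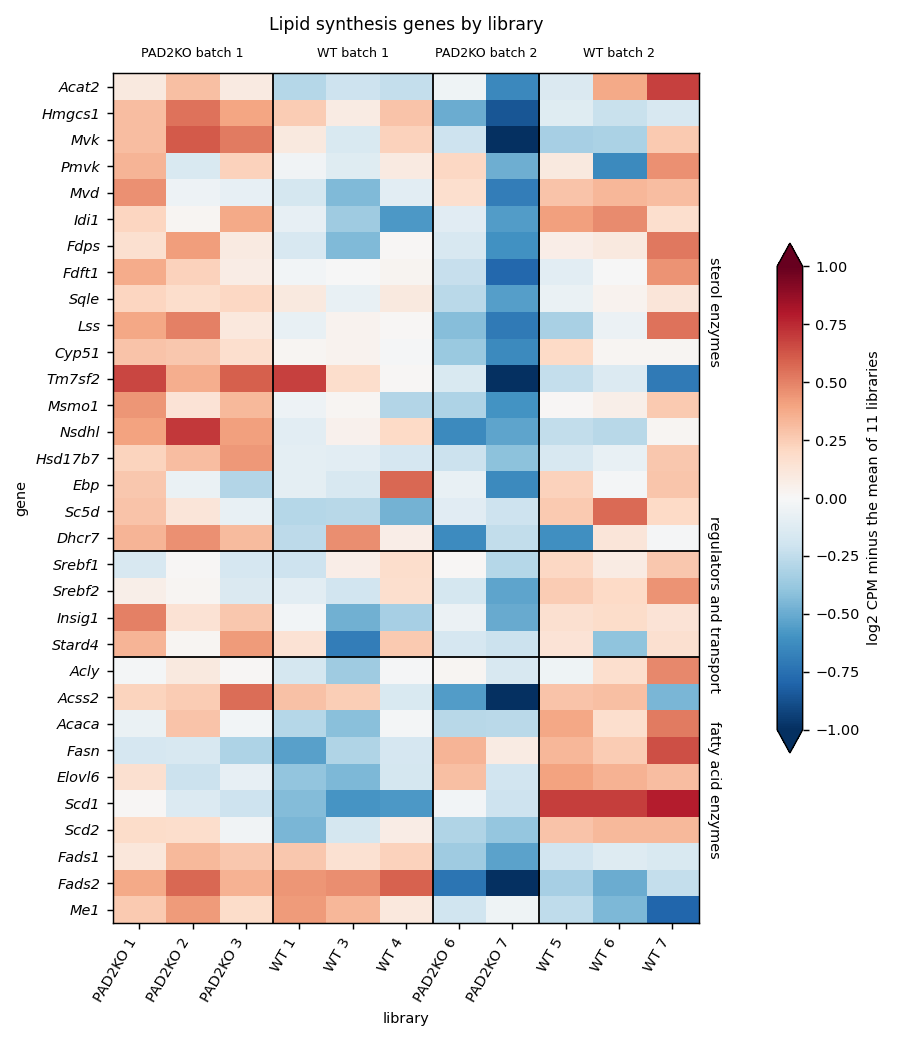
Level of each of the 32 genes (rows, grouped by role) in each of the 11 libraries (columns, grouped by genotype and batch), as log2 CPM minus the gene's mean over the libraries; the color scale stops at 1 in either direction. The sterol enzymes are mostly red in the PAD2KO libraries of batch 1 and blue in those of batch 2, deepest in PAD2KO 7, while Scd1 is red in the 3 WT libraries of batch 2.

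In batch 1, none of the 32 genes passed the test between PAD2KO and WT (edgeR quasi-likelihood test, adjusted p over all 9932 genes under 0.05), where 13 genes in all, or 0.131%, did. The fold changes leaned to higher values in PAD2KO: 29 of 32 were positive, with a median log2 fold change of 0.26 against -0.0011 over all genes tested. At an unadjusted p under 0.05 in this test, 12 of the 32 were higher and 0 lower, against 266 higher and 279 lower of 9932 genes. DESeq2 also called 0 of the 32. The 3 PAD2KO libraries lay above the 3 WT libraries without overlap for 16 genes, 14 of them sterol enzymes, against 5.41% of all genes, and below for none, against 5.92%. The median log2 fold change was 0.35 for sterol enzymes, 0.17 for the regulators and transport genes and 0.21 for fatty acid enzymes. In bulk libraries such as these, fewer cells of a type and less RNA per cell cannot be told apart.

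Insig1 came closest to the threshold in batch 1. Its protein holds the SREBP complex in the endoplasmic reticulum and is itself an SREBP target. Insig1 had 250, 194 and 212 CPM in PAD2KO and 173, 126 and 140 CPM in WT libraries of batch 1, so every PAD2KO library lay above every WT library. The log2 fold change was 0.58 (SE 0.13, adjusted p = 0.0964). It passed with WT 1 left out (0.72, adjusted p = 0.0268), with the 2 groups of batch 1 fitted alone (0.58, adjusted p = 0.0443) and with no filter on low counts (0.58, adjusted p = 0.00287). It did not pass in any other alternative, among them DESeq2, length offsets, the replicate block and the fits with another library left out. In batch 2, Insig1 had 169 and 124 CPM in PAD2KO and 196, 200 and 193 CPM in WT libraries, now with PAD2KO below WT and again without overlap, at -0.42 (SE 0.15, adjusted p = 0.15).

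In batch 2 the lean was the other way. Of the 32 genes, 9 passed the test and all 9 were lower in PAD2KO: the sterol enzymes Hmgcs1, Idi1, Cyp51, Msmo1 and Sc5d, the regulator Srebf2, and the desaturases Scd1, Scd2 and Fads2. Over all genes 3.11% passed, 1.4% higher and 1.71% lower. Negative fold changes were found for 31 of 32 genes, with a median of -0.49 against -0.0068 over all genes. At an unadjusted p under 0.05 in this test, 19 of the 32 were lower and 1 higher, against 778 lower and 655 higher of 9932 genes. The PAD2KO libraries lay below the WT libraries without overlap for 23 genes, against 15.7% of all genes, and above for Me1, against 15.5%. The median log2 fold change was -0.50 for sterol enzymes, -0.37 for the regulators and transport genes and -0.40 for fatty acid enzymes.

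Much of the batch 2 count rests on PAD2KO 7. Leaving out either PAD2KO library leaves 1 in that group, which is then assumed to vary like the libraries of the other groups. Without PAD2KO 6, 31 of 32 fold changes were negative, with a median of -0.655. Without PAD2KO 7, most of the 9 calls were lost, as were most calls over all genes. The log2 fold change of Scd1 was then -0.75. Scd2 (-0.61) and Sc5d (-0.47) kept fold changes near those with all libraries, while that of Hmgcs1 went from -0.50 to -0.33. The median went from -0.50 to -0.35 for sterol enzymes, from -0.37 to -0.19 for the regulators and transport genes and from -0.40 to -0.29 for fatty acid enzymes. Without PAD2KO 7, 29 of 32 fold changes were still negative, with a median of -0.34. Without WT 6, 5 members passed, of 236 genes in all, and without WT 7 5 members passed, of 202 genes. PAD2KO 6 taken alone lay below all 3 WT libraries of batch 2 for 24 of 32 genes, against 27.2% of all genes, and PAD2KO 7 for 28, against 29.3%. With offsets from the deposited gene lengths, 31 of 32 fold changes were negative. Sc5d alone of the 32 passed (-0.77, adjusted p = 0.0351), where 89 genes in all passed. The sum of smooth muscle and pericyte markers moved with this comparison: all 8 were detected and summed to 4050 to 5160 CPM in PAD2KO and 1460 to 1870 CPM in WT libraries of batch 2, against 4960 to 7740 CPM in PAD2KO and 6550 to 7290 CPM in WT libraries of batch 1. Acta2 was the largest part of this sum, at 1110 to 5760 CPM over all libraries. Rgs5 and Cspg4 were barely detected, at medians of 1.59 and 1.56 CPM. Fibroblast markers summed to 10300 to 11000 CPM in PAD2KO and 11700 to 12500 CPM in WT libraries of batch 2. Immune markers, led by the macrophage gene Lyz2, summed to 45.5 to 75.3 CPM in PAD2KO and 40.8 to 231 CPM in WT libraries of batch 2. The part of these markers in the result was not tested.

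**Figure D2:**
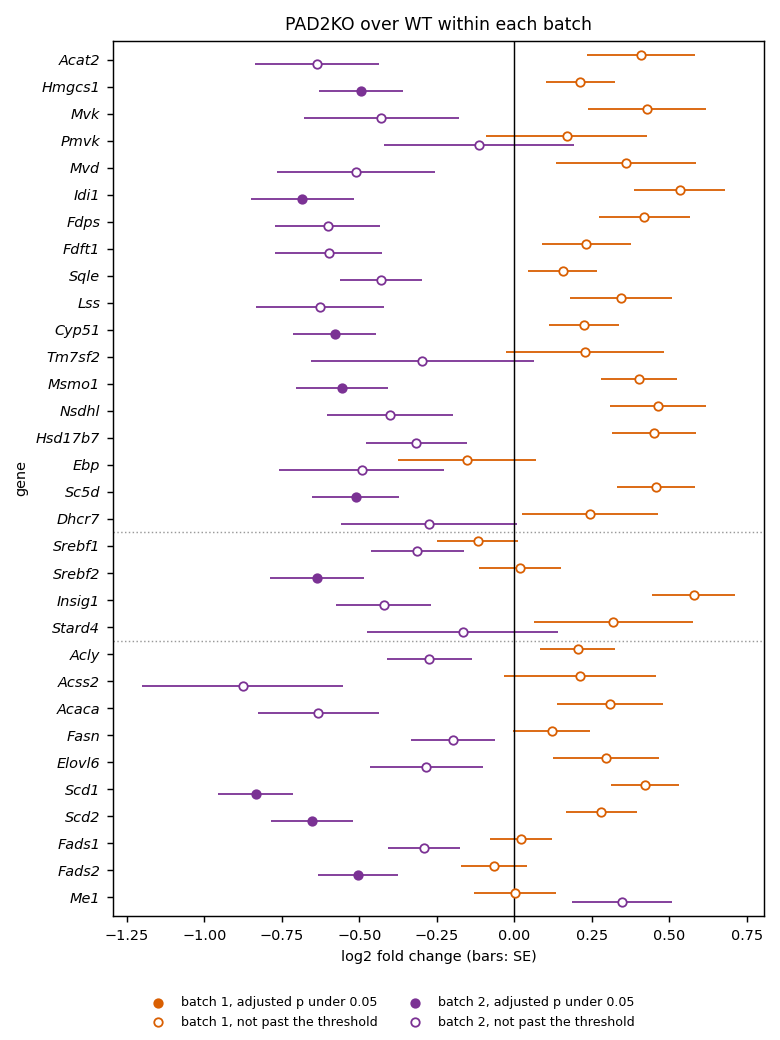
Log2 fold change of PAD2KO over WT for each gene, in batch 1 and in batch 2, with bars of 1 SE; filled points passed the adjusted p threshold of 0.05. Nearly all batch 1 points lie right of 0 and nearly all batch 2 points left of it; Me1 is the exception on the right in batch 2, and the 9 filled points are all of batch 2.

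Among the enzymes that make mevalonate and its isoprenoid products, Idi1 differed most between the batches. It isomerises isopentenyl diphosphate, the building block of all isoprenoids. Idi1 had 118, 103 and 132 CPM in PAD2KO and 95.7, 79.5 and 68.3 CPM in WT libraries of batch 1. In batch 2 it had 94 and 69 CPM in PAD2KO and 135, 141 and 114 CPM in WT libraries. PAD2KO was above WT in batch 1 and below it in batch 2, both without overlap, at 0.53 (SE 0.15, adjusted p = 0.218) in batch 1 and -0.68 (SE 0.17, adjusted p = 0.0182) in batch 2. Hmgcs1, the synthase that commits acetyl units to HMG-CoA, had 265, 311 and 280 CPM in PAD2KO and 254, 226 and 260 CPM in WT libraries of batch 1. In batch 2 it fell to 151 and 118 CPM in PAD2KO, against 196, 183 and 191 CPM in WT (-0.50, SE 0.14, adjusted p = 0.0392). Both genotypes had less Hmgcs1 in batch 2 than in any batch 1 library.

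The sterol ring steps gave the other 3 calls of the branch. Cyp51, the lanosterol demethylase, had 187, 185 and 172 CPM in PAD2KO and 156, 157 and 152 CPM in WT libraries of batch 1, then 119 and 98.8 CPM in PAD2KO and 176, 156 and 156 CPM in WT libraries of batch 2. The batch 2 difference was -0.58 (SE 0.13, adjusted p = 0.0124). Msmo1, a methylsterol oxidase, had 211, 171 and 195 CPM in PAD2KO and 150, 158 and 127 CPM in WT libraries of batch 1. In batch 2 it had 126 and 103 CPM in PAD2KO and 157, 162 and 187 CPM in WT libraries (-0.56, SE 0.15, adjusted p = 0.0307). Sc5d, a late sterol desaturase, had 207, 185 and 161 CPM in PAD2KO and 139, 140 and 122 CPM in WT libraries of batch 1, then 157 and 147 CPM in PAD2KO and 203, 252 and 195 CPM in WT libraries of batch 2. Its difference was 0.46 (SE 0.13, adjusted p = 0.218) in batch 1 and -0.51 (SE 0.14, adjusted p = 0.039) in batch 2, again without overlap in either. For each of these 3 enzymes the PAD2KO libraries were the higher group in batch 1 and the lower in batch 2.

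The promoters of Idi1, Hmgcs1, Sc5d and Msmo1 are shown because these genes, of those in the RefSeq table, passed in the most comparisons: Idi1 and Hmgcs1 in 4 of 5, Sc5d and Msmo1 in 3 of 5, ahead of other genes with 3 by their p in the test of the difference between batches. The family is known for shared promoter elements. Each window runs from 250 bases before to 50 bases after the start of the gene, 5′ to 3′ on the gene's strand, from RefSeq on GRCm38.p6. They lie at chr13:8885356-8885655 (plus strand) for Idi1, chr13:119690101-119690400 (plus strand) for Hmgcs1, chr9:42264251-42264550 (minus strand) for Sc5d and chr8:64733529-64733828 (minus strand) for Msmo1. Capitals mark the letters CCAAT, known as the core of NF-Y sites, or their complement ATTGG, and in Hmgcs1 also TCACCCCAC, a match to the letters TCACNCCAC of a sterol regulatory element.
Idi1: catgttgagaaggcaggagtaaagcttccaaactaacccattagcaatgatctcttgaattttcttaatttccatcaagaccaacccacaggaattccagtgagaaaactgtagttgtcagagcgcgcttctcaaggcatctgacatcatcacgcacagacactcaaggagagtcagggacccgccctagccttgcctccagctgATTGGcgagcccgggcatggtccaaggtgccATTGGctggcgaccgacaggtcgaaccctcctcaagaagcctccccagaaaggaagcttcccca
Hmgcs1: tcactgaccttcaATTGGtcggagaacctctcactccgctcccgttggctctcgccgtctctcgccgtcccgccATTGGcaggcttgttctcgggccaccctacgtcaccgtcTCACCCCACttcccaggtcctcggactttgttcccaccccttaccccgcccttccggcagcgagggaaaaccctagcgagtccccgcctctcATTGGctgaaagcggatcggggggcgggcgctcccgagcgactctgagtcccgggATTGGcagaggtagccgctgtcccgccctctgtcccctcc
Sc5d: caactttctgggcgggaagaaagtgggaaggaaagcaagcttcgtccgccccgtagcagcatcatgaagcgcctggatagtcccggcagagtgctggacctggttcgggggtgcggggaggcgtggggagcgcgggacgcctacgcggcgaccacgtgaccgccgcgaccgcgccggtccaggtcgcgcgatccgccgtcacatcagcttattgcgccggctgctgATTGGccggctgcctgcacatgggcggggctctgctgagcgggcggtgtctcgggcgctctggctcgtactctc
Msmo1: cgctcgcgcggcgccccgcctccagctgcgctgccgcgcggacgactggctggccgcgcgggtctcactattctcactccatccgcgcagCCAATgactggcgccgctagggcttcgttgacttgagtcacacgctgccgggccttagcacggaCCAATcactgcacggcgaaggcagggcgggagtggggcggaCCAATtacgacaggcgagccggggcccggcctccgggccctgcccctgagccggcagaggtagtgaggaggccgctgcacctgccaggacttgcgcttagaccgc
On either strand, CCAAT stood in a window of 21 of the 25 members found in the RefSeq table (84%), against 41.1% of 27025 genes. The share was 14 of 15 sterol enzymes (93.3%), 3 of 3 regulators and 4 of 7 fatty acid enzymes (57.1%). TCACNCCAC stood in 1 of 25 (4%), against 1.44% of all genes, and CACCCCAC, which overlaps it, in 2 of 25 (8%; Hmgcs1 and Acat2), against 3.3%. A match in letters is a description of the window and not a site.

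The remaining sterol enzymes did not pass between genotypes in either batch, and most kept the same order of groups. Fdps had 205, 246 and 195 CPM in PAD2KO and 164, 135 and 185 CPM in WT libraries of batch 1, and 164 and 121 CPM in PAD2KO and 192, 197 and 265 CPM in WT libraries of batch 2. Acat2, the thiolase that joins acetyl-CoA units, had 97.4, 112 and 96.7 CPM in PAD2KO and 74.7, 78.8 and 77 CPM in WT libraries of batch 1. In batch 2 it had 88.3 and 58 CPM in PAD2KO and 82.3, 118 and 146 CPM in WT libraries. Neither Fdps group pair overlapped, whereas the Acat2 groups overlapped in batch 2, where WT 5 lay below PAD2KO 6.

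Mvk, the mevalonate kinase, had 57, 70.1 and 65.9 CPM in PAD2KO and 49, 41.2 and 54 CPM in WT libraries of batch 1, and 39.7 and 22.7 CPM in PAD2KO and 36.4, 36.8 and 55.1 CPM in WT libraries of batch 2. Fdft1, the squalene synthase, had 150, 136 and 122 CPM in PAD2KO and 114, 116 and 118 CPM in WT libraries of batch 1. In batch 2 Fdft1 had 98.8 and 67.4 CPM in PAD2KO and 108, 116 and 158 CPM in WT libraries. Fdft1 was thus separated between genotypes in both batches, and Mvk in batch 1 alone. Sqle, the squalene epoxidase, had 194, 189 and 193 CPM in PAD2KO and 179, 159 and 179 CPM in WT libraries of batch 1, then 139 and 114 CPM in PAD2KO and 160, 171 and 182 CPM in WT libraries of batch 2. Lss, which closes squalene epoxide to lanosterol, had 112, 122 and 92.3 CPM in PAD2KO and 81.7, 88 and 86.6 CPM in WT libraries of batch 1. In batch 2 Lss had 64 and 52.5 CPM in PAD2KO and 68.5, 82.3 and 125 CPM in WT libraries. Sqle and Lss also showed no overlap in either batch, with WT 7 the highest library of all for Lss.

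Of the sterol-trimming enzymes, Nsdhl, a sterol dehydrogenase, had 72.9, 90.3 and 73.2 CPM in PAD2KO and 51.4, 56.8 and 63.5 CPM in WT libraries of batch 1, and 35.6 and 38.4 CPM in PAD2KO and 46.6, 45.5 and 56.1 CPM in WT libraries of batch 2. Hsd17b7, a keto-sterol reductase, had 101, 107 and 117 CPM in PAD2KO and 80.9, 80.2 and 77 CPM in WT libraries of batch 1. In batch 2 Hsd17b7 had 74.5 and 65.1 CPM in PAD2KO and 77.2, 82.3 and 104 CPM in WT libraries. Both were separated in both batches, as Idi1 was. Tm7sf2, a sterol reductase, had 30.1, 24.3 and 28.6 CPM in PAD2KO and 30.4, 21.3 and 19.1 CPM in WT libraries of batch 1, then 17 and 7.84 CPM in PAD2KO and 16, 17.2 and 11.6 CPM in WT libraries of batch 2. Dhcr7, the reductase that yields cholesterol, had 36.4, 39.6 and 35.9 CPM in PAD2KO and 24.1, 39.8 and 30.2 CPM in WT libraries of batch 1. In batch 2 Dhcr7 had 18.6 and 24.3 CPM in PAD2KO and 18.9, 31.3 and 28.6 CPM in WT libraries. The Tm7sf2 and Dhcr7 groups overlapped in both batches, and Tm7sf2 had as few as 10 counts, in PAD2KO 7. The kinase Pmvk ranged from 14.9 to 31.8 CPM, the decarboxylase Mvd from 19.6 to 43.6 CPM and the sterol isomerase Ebp from 21.9 to 50.8 CPM over all libraries, and none of them passed in any comparison.

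The transcript of the sterol regulator itself was lower in PAD2KO in batch 2 alone. Srebf2 had 102 and 79.9 CPM in PAD2KO and 137, 132 and 157 CPM in WT libraries of batch 2 (-0.64, SE 0.15, adjusted p = 0.0163). In batch 1 it had 120, 117 and 104 CPM in PAD2KO and 107, 101 and 129 CPM in WT libraries, which overlapped, with a log2 fold change of 0.019 (SE 0.13). The difference between the batches was -0.66 (SE 0.20, adjusted p = 0.109) and did not pass. Srebf1 had 97.4, 110 and 96.7 CPM in PAD2KO and 94.2, 114 and 123 CPM in WT libraries of batch 1, and 110 and 89.4 CPM in PAD2KO and 126, 115 and 131 CPM in WT libraries of batch 2. It did not pass in any comparison; its batch 2 difference was -0.31 (SE 0.15, adjusted p = 0.33). Stard4, a cytosolic sterol carrier, ranged from 13.5 to 29.3 CPM and did not pass in any comparison either.

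**Figure D3:**
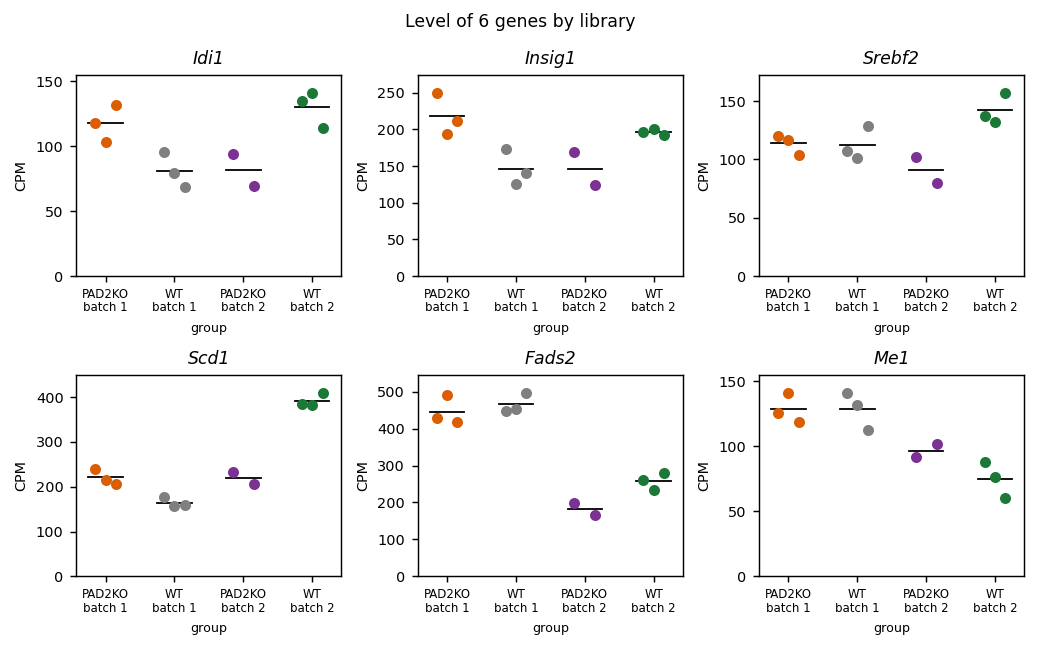
CPM (axis from 0) of 6 genes in each library, by genotype and batch; points are libraries and lines are group means. Idi1 and Insig1 lie higher in PAD2KO than in WT in batch 1 and lower in batch 2; Scd1 is highest in the WT libraries of batch 2; Fads2 is lower in batch 2 than in batch 1 in both genotypes; Me1 is higher in PAD2KO than in WT in batch 2.

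Among fatty acid enzymes the 3 calls of batch 2 were all desaturases. Scd1, which puts the double bond into stearoyl-CoA and palmitoyl-CoA, had 233 and 206 CPM in PAD2KO and 385, 383 and 409 CPM in WT libraries of batch 2 (-0.84, SE 0.12, adjusted p = 7e-05). In batch 1 Scd1 had 240, 216 and 206 CPM in PAD2KO and 176, 158 and 160 CPM in WT libraries (0.42, SE 0.11, adjusted p = 0.182). The PAD2KO libraries spanned 206 to 240 CPM over both batches, while the WT libraries of batch 2 lay far above those of batch 1. Its relative Scd2 had 334 and 314 CPM in PAD2KO and 501, 513 and 513 CPM in WT libraries of batch 2 (-0.65, SE 0.13, adjusted p = 0.0033). In batch 1 Scd2 had 466, 464 and 400 CPM in PAD2KO and 300, 363 and 432 CPM in WT libraries, which overlapped. Scd3 and Scd4, close copies of these genes, had 3 and 9 counts over all libraries, and Acat3, a copy of Acat2, had 69, so few estimated reads went to them.

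Fads2, which starts the desaturation of linoleic and linolenic acid, had 198 and 165 CPM in PAD2KO and 261, 234 and 279 CPM in WT libraries of batch 2 (-0.50, SE 0.13, adjusted p = 0.0257). In batch 1 it had 428, 490 and 418 CPM in PAD2KO and 448, 454 and 496 CPM in WT libraries, with overlap. Fads1, the next desaturase of that route, had 326 and 287 CPM in PAD2KO and 366, 382 and 376 CPM in WT libraries of batch 2 (-0.29, SE 0.12, adjusted p = 0.207), and 451, 521 and 502 CPM in PAD2KO and 502, 464 and 488 CPM in WT libraries of batch 1. Per length, the ratio of Fads2 to Fads1 was 0.621 and 0.625 in PAD2KO and 0.744, 0.682 and 0.767 in WT libraries of batch 2, against 1.03, 1.01 and 0.954 in PAD2KO and 0.956, 0.979 and 1.07 in WT libraries of batch 1. The ratio of Scd1 to Scd2 had no such order by genotype, at 0.794 and 0.94 in PAD2KO and 0.872, 0.848 and 0.906 in WT libraries of batch 2.

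None of the 4 enzymes that make and lengthen the saturated chain passed between genotypes in either batch. Fasn, the fatty acid synthase, had 298 and 248 CPM in PAD2KO and 295, 280 and 367 CPM in WT libraries of batch 2, and 209, 210 and 190 CPM in PAD2KO and 161, 191 and 209 CPM in WT libraries of batch 1. Acly, which splits citrate into acetyl-CoA, had 326 and 288 CPM in PAD2KO and 311, 361 and 447 CPM in WT libraries of batch 2, and 316, 343 and 323 CPM in PAD2KO and 284, 251 and 318 CPM in WT libraries of batch 1. For both genes the genotypes overlapped in each batch. Acaca had 43.7 and 43.9 CPM in PAD2KO and 69.2, 59.6 and 76.2 CPM in WT libraries of batch 2 (-0.63, SE 0.19, adjusted p = 0.0737), and 50.7, 64.6 and 52 CPM in PAD2KO and 43.6, 39.8 and 52.4 CPM in WT libraries of batch 1. Elovl6, which lengthens palmitate, had 70.5 and 50.2 CPM in PAD2KO and 75.8, 72.9 and 71 CPM in WT libraries of batch 2, and 64.1, 49.3 and 54.2 CPM in PAD2KO and 43.6, 41.9 and 50.8 CPM in WT libraries of batch 1. Acaca and Elovl6 lay lower in PAD2KO without overlap in batch 2, short of the threshold.

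Acss2 had 13.8 and 10.2 CPM in PAD2KO and 24.8, 25.1 and 14.8 CPM in WT libraries of batch 2, and 23.8, 24.3 and 30 CPM in PAD2KO and 24.9, 24.1 and 18.3 CPM in WT libraries of batch 1. Its batch 2 difference had the largest size of the 32 genes and a wide error (-0.88, SE 0.32, adjusted p = 0.161). Me1, the malic enzyme that supplies NADPH, ran against the other genes: it had 91.5 and 102 CPM in PAD2KO and 88.1, 76.8 and 60.4 CPM in WT libraries of batch 2 (0.35, SE 0.16, adjusted p = 0.319). In batch 1 Me1 had 126, 141 and 119 CPM in PAD2KO and 141, 132 and 113 CPM in WT libraries, with overlap.

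A test of the difference itself, the PAD2KO over WT log2 fold change of batch 2 minus that of batch 1, passed for 10 of the 32 genes, all negative, where 1.62% of all genes passed, 0.665% positive and 0.957% negative. They were Acat2, Hmgcs1, Idi1, Fdps, Cyp51, Msmo1 and Sc5d of the sterol branch, Insig1, and Scd1 and Scd2 of the fatty acid branch. The largest were Scd1 at -1.26 (SE 0.16, adjusted p = 0.00011) and Idi1 at -1.22 (SE 0.22, adjusted p = 0.0024). Negative differences were found for 31 of 32 genes, with a median of -0.84 for sterol enzymes, -0.57 for the regulators and transport genes and -0.53 for fatty acid enzymes, against -0.0071 over all genes. With all libraries, a positive fold change in batch 1 together with a negative one in batch 2 occurred for 28 of 32 genes (87.5%), against 26.3% of all genes. Leaving out PAD2KO 6 or 7 left 1 library in the PAD2KO group of batch 2, with the spread taken from the other groups. Without PAD2KO 6, 31 of 32 differences were negative, with a median of -0.905. Without PAD2KO 7, 30 of 32 were still negative, with a median of -0.565, and Scd1 was at -1.17. Most of the 10 calls, and most calls over all genes, were then lost. Over the 11 fits with 1 library left out, the Acat2 call held in 2 and the Hmgcs1 call in 5. With offsets from gene lengths 2 members passed, of 26 genes in all. They were Sc5d (-1.24, adjusted p = 0.0345) and Scd1 (-1.29, adjusted p = 0.0251).

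The batches were then compared within each genotype, using the same libraries as above, so these results are not independent of those between genotypes. In PAD2KO, 19 of the 32 genes differed between batch 2 and batch 1: 18 were lower in batch 2 and Fasn was higher. Over all genes 18.7% passed, 9.52% higher and 9.13% lower. Of the sterol enzymes 13 of 18 were lower, Tm7sf2 (-1.15), Nsdhl (-1.09), Hmgcs1 (-1.08) and Mvk (-1.05) most, with a branch median of -0.68. Insig1 was lower too (-0.58, SE 0.15, adjusted p = 0.0075). The fatty acid branch had 4 genes lower, Fads2 (-1.29), Acss2 (-1.12), Fads1 (-0.68) and Scd2 (-0.45), and Fasn higher (0.42, SE 0.14, adjusted p = 0.0289), with a branch median of -0.38. Scd1 was at -0.0066 (SE 0.12). The PAD2KO libraries of batch 2 lay below those of batch 1 without overlap for 24 genes, against 23.7% of all genes, and above for 1, against 22.4%. Leaving out PAD2KO 6 or 7 left 1 PAD2KO library in batch 2, with the spread taken from the other groups. Without PAD2KO 6, 31 of 32 fold changes were negative, with a median of -0.745. Without PAD2KO 7, 26 of 32 were negative, with a median of -0.432, and most of the 19 calls were lost. Many calls over all genes were lost in either fit. The Fasn call was lost without PAD2KO 3, without PAD2KO 6, with DESeq2 and with length offsets. With offsets from gene lengths 7 members passed, of 864 genes in all. Fibroblast markers summed to 10300 to 11000 CPM in batch 2 and 16600 to 17800 CPM in batch 1 in PAD2KO, and mesothelial markers to 78.4 to 123 CPM in batch 2 and 158 to 409 CPM in batch 1. Neither overlapped, and the part of these markers in the result was not tested.

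In WT, 15 of the 32 genes differed between batch 2 and batch 1, 11 higher and 4 lower, where 22.3% of all genes passed, 11.7% higher and 10.6% lower. The higher ones were 6 of the 10 fatty acid enzymes, Scd1 (1.25, SE 0.11, adjusted p = 6.01e-10), Fasn (0.74), Elovl6 (0.69), Acaca (0.59), Scd2 (0.48) and Acly (0.39), the 4 sterol enzymes Sc5d (0.70), Idi1 (0.69), Acat2 (0.56) and Fdps (0.42), and Insig1 (0.43). The lower ones were Fads2 (-0.86), Me1 (-0.76), Hmgcs1 (-0.37) and Fads1 (-0.37). The branch median was 0.43 for fatty acid enzymes and 0.072 for sterol enzymes, the second of which turned to -0.036 without WT 7. The WT libraries of batch 2 lay above those of batch 1 without overlap for 12 genes, against 18.7% of all genes, and below for 5, against 17.8%. With offsets from gene lengths 8 members passed, of 1356 genes in all. Fibroblast markers summed to 11700 to 12500 CPM in batch 2 and 17100 to 22600 CPM in batch 1 in WT. Smooth muscle and pericyte markers were at 1460 to 1870 CPM in batch 2 and 6550 to 7290 CPM in batch 1 in WT, and mesothelial markers at 58.2 to 123 CPM in batch 2 and 292 to 482 CPM in batch 1. The part of these markers in the batch differences was not tested.

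**Figure D4:**
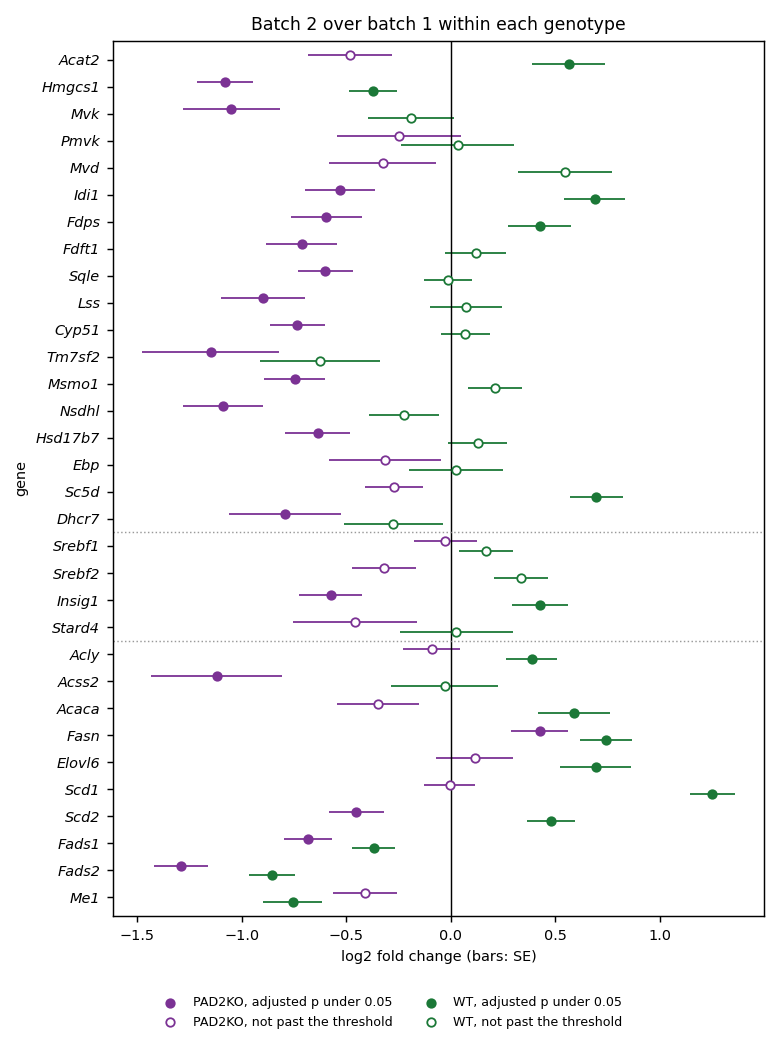
Log2 fold change of batch 2 over batch 1 for each gene within PAD2KO and within WT, with bars of 1 SE; filled points passed the adjusted p threshold of 0.05. PAD2KO points lie left of 0 for 30 of 32 genes, while WT points spread to both sides, with Scd1 at 1.25 and Fads2 at -0.86.

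The branches were contrasted by a mean over their genes of log2 CPM, centred on each gene's mean over the libraries, as a description with no test. The sterol mean was 0.31, 0.27 and 0.21 in PAD2KO and -0.034, -0.083 and -0.016 in WT libraries of batch 1, and -0.22 and -0.61 in PAD2KO and -0.043, 0.020 and 0.20 in WT libraries of batch 2. The fatty acid mean was 0.11, 0.16 and 0.067 in PAD2KO and -0.086, -0.11 and -0.0095 in WT libraries of batch 1, and -0.17 and -0.36 in PAD2KO and 0.15, 0.12 and 0.14 in WT libraries of batch 2. In both branches the PAD2KO libraries lay above WT in batch 1 and below it in batch 2. Sterol minus fatty acid was 0.21, 0.11 and 0.14 in PAD2KO and 0.053, 0.026 and -0.0068 in WT libraries of batch 1, where the genotypes did not overlap. In batch 2 it was -0.046 and -0.25 in PAD2KO and -0.19, -0.094 and 0.060 in WT libraries, where they did. So the sterol branch stood further above WT than the fatty acid branch in batch 1, while in batch 2 the genotypes overlapped on this measure.

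**Figure D5:**
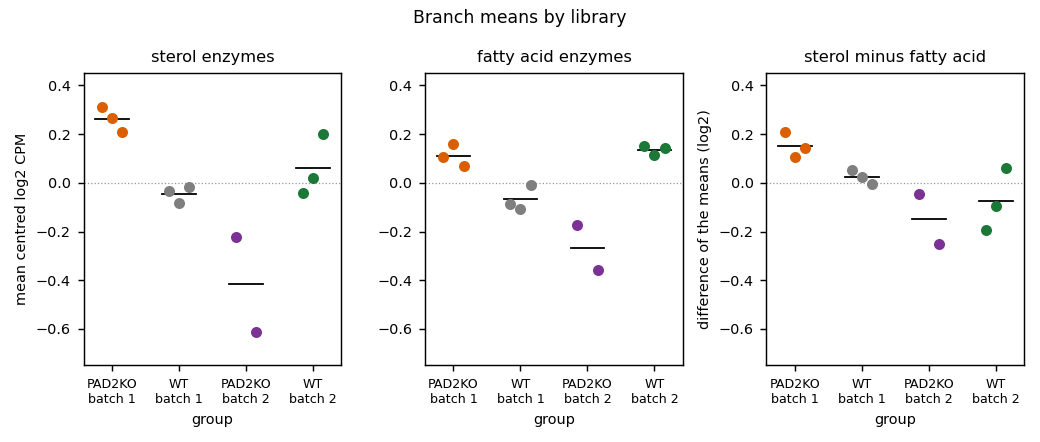
Mean centred log2 CPM per library of the sterol enzymes, of the fatty acid enzymes, and of sterol minus fatty acid; points are libraries, lines group means. PAD2KO points lie above WT in batch 1 and below WT in batch 2 in the panels of both branches; in the panel of the difference, the genotypes separate in batch 1 only.

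Around the 32 genes, 9 lists of neighbouring pathways were counted. None of their genes passed between genotypes in batch 1, where 0.131% of all genes did. In batch 2, where 3.11% of all genes passed, none of the 12 genes of SREBP processing, 6 other sterol genes, 13 prenylation, dolichol and ubiquinone genes, 17 fatty acid oxidation genes or 8 lipid droplet and lipofibroblast genes tested passed. Of 9 genes of the liver X receptor and efflux list, 1 was lower, Abca1, the cholesterol efflux pump (-0.85, SE 0.14, adjusted p = 0.000531), and all 9 fold changes were negative. Of 17 cholesterol uptake, transport and esterification genes, Npc2, which carries cholesterol out of lysosomes, was lower (-0.63, SE 0.12, adjusted p = 0.00259) and Cav1, the main protein of caveolae, was higher (0.72, SE 0.16, adjusted p = 0.00833). Of 26 other fatty acid and glycerolipid genes 2 were lower, Dgat2, which makes triglyceride (-1.35, SE 0.33, adjusted p = 0.0181), and Hacd3 (-0.51, SE 0.14, adjusted p = 0.0455). Of 8 NADPH supply genes Idh1 was lower (-0.70, SE 0.13, adjusted p = 0.00238).

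Between batches, the NADPH list had the largest share of calls: 5 of 8 genes were higher in batch 2 in PAD2KO and 5 of 8 in WT, against 9.52% of all genes in PAD2KO and 11.7% in WT. The pentose phosphate genes G6pdx, Pgd and Taldo1 were among them, at 0.72, 0.50 and 0.68 in PAD2KO and 1.18, 1.03 and 0.88 in WT. Scap, the escort of SREBP to its proteases, was the only SREBP processing gene of 12 to pass, higher in batch 2 in PAD2KO (1.05, SE 0.14, adjusted p = 3.41e-06) and in WT (1.34, SE 0.13, adjusted p = 5.42e-09). Fatty acid oxidation genes were lower in batch 2 for 5 of 17 in PAD2KO, against 9.13% of all genes. In WT 1 was higher and 2 were lower, against 11.7% and 10.6% of all genes. The 8 lipid droplet and lipofibroblast genes tested held 1 higher and 2 lower in batch 2 in PAD2KO, against 9.52% and 9.13% of all genes. In WT they held 2 higher and 1 lower, against 11.7% and 10.6%. Plin2, a lipid droplet coat protein, was higher in batch 2 in PAD2KO (0.56, SE 0.14, adjusted p = 0.00658) and in WT (0.91, SE 0.13, adjusted p = 5.04e-06). Tcf21 of the same list was lower in PAD2KO (-3.47, SE 0.933, adjusted p = 0.0107) and in WT (-3.16, SE 0.755, adjusted p = 0.00318). Plin3 was lower in PAD2KO (-0.757, SE 0.16, adjusted p = 0.00103). Genes of these lists that passed the test of the difference included Npc2 (-0.79), Abca1 (-0.94), Dgat2 (-2), Slc25a1, the citrate carrier (-0.70), and Idh1 (-0.90).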

How the data were processed

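RNA of sorted primary lung fibroblasts was made into libraries with a SMARTer kit after the SmartSeq2 protocol, per the labels' protocols, with no molecular identifiers named, so copies of a molecule count as separate reads. The build was GRCm39 and the tools were Salmon 1.3.2, fastp and DESeq2 1.46.0, per the submitters' processing notes. Annotation release and strand setting are not given in the sources used here. What the authors deposited were estimated counts per gene, unscaled, with TPM values and effective lengths. The deposited TPM values served for levels between genes, and the lengths only as an alternative. Of 56065 entries, 23133 without a symbol (3.80% to 6.40% of counts) were left out; the rest were summed by symbol and rounded.

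The test was edgeR's quasi-likelihood F-test (edgeR 4.0.16, R 4.3.3), with TMM scaling, filterByExpr on genotype, and a robust fit of 4 group means over 11 libraries, with 7 residual degrees of freedom and Benjamini-Hochberg adjustment over 9932 genes at 0.05. Contrasts were PAD2KO over WT in each batch, batch 2 over batch 1 in each genotype, and their interaction. Log2 CPM used a prior count of 2. The fit was tested on simulated counts. Alternatives were DESeq2 size factors, DESeq2 1.42.0, no filter, length offsets, 2 groups alone, a replicate block, each library left out, and a prior count of 0.5. Exact tests of single values could not go below 0.1 for 3 against 3 or 0.2 for 3 against 2 libraries, so none is given.

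No label says which animals or cultures the libraries came from, so p-values cover only library-to-library spread, possibly technical. WT 5 and WT 6 differed least (chi-square per degree of freedom 1.51; other pairs 2.1 to 3.18) and were kept as 2 libraries. Members, lists and tests were chosen with earlier results of these data known. Values in every library are given for members past the threshold in any contrast and for Srebf1, Srebf2 and Insig1; of each pathway list, at most 3 genes past the threshold by p are named. Not every gene this rule picks is reported here. Exons of 9 members overlap a gene on the other strand in GENCODE M21 (GRCm38): Hmgcs1, Idi1, Fdft1, Lss, Cyp51, Srebf1, Acss2, Elovl6 and Me1. Without a known strand setting, their reads may include reads of that gene. Exons of 4 members, Fdps, Tm7sf2, Srebf1 and Scd2, overlap another gene on the same strand, so their counts may be split or shared.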

Additional observations from a re-analysis of the deposited data

Results flagged for a closer look

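For 10 genes the PAD2KO over WT log2 fold change differed between the batches in the test of that difference (batch 2 minus batch 1, edgeR, adjusted over all genes tested). In the sterol branch the difference was -1.22 for Idi1, -1.05 for Acat2, -1.02 for Fdps, -0.97 for Sc5d, -0.958 for Msmo1, -0.804 for Cyp51 and -0.708 for Hmgcs1. For Insig1 it was -1, and in the fatty acid branch it was -1.26 for Scd1 and -0.934 for Scd2. With PAD2KO 7 left out, most of these calls were lost, in a fit with 1 PAD2KO library in batch 2 whose spread was taken from the other groups. The difference for Scd1 was then -1.17. Some calls rested on other libraries too. Over the 11 fits with 1 library left out, Acat2 passed in 2 and Hmgcs1 in 5, and Fdps was also lost without WT 3.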

How the results depend on the processing

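No call of a member changed direction. Of the calls of single members refitted under the alternatives, 706 kept their side of the threshold and 151 lost it. Counts of members past the threshold, with main values of 0 and 9 for PAD2KO against WT in batch 1 and batch 2, 19 and 15 for batch 2 against batch 1 in PAD2KO and WT, and 10 for the interaction, ranged over 0 to 1, 1 to 11, 7 to 21, 10 to 15 and 1 to 12 when each library was left out; the counts of all genes (13, 309, 1853, 2212 and 161) ranged over 5 to 20, 65 to 374, 1079 to 1947, 1711 to 2303 and 33 to 228. Length offsets gave 1 member in batch 2, 7 in PAD2KO, 8 in WT and 2 for the interaction, and 2, 89, 864, 1356 and 26 genes; the cause was not tested. Without a filter, 2 members and 58 genes passed in batch 1, 529 genes in batch 2 and 323 for the interaction. With 2 groups fitted alone, 1 member and 22 genes passed in batch 1, and 5 members and 243 genes in batch 2. DESeq2 called 1219 genes in PAD2KO. Deviations of same-numbered libraries from their group means correlated at 0.0015 to 0.049. With groups of 2 or 3 libraries, this cannot decide whether a shared number means a shared origin. With the replicate block, 8 genes passed in batch 1. In batch 2, 5 members and 261 genes passed, and for the interaction 6 members and 112 genes. The batch comparisons could not be fitted with this block. Depth limits the rarest members: Tm7sf2 and Acss2 had as few as 10 and 13 counts in a library.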
